A study of Mus musculus with 18 samples.

Results

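The genes described here encode mainly the heat shock proteins and chaperones of the cytosol and nucleus, with their mitochondrial relatives and their regulators. They were chosen by symbol: protein-coding mouse genes whose symbols start with Hsp, Dnaj, Bag or Hsf, or with Cct followed by a digit, and Tcp1. The endoplasmic reticulum chaperone genes Hspa5, Hsp90b1, Dnajb9, Dnajb11 and Dnajc3 were left out by name, as was Hspg2, a matrix proteoglycan gene. Other relatives from that compartment stayed in by symbol, among them Dnajb14 and Hspa13. This gave 92 genes of the 53509 listed in the 3 deposited tables of counts, and no expression value was used to choose them. Of the 92 genes, 74 had enough counts to be tested in at least 1 of the 3 ligand comparisons and 71 in all 3. The other 18 were too low, and 5 of these (Dnajc5g, Hsf3, Hsfy2, Hspb2 and Hspb3) had 0 counts in all 18 libraries, where a count of 0 allows up to 3 counts per library.

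RNA was sequenced from wild type mouse double negative T cells (DNT cells), T cells without CD4 and CD8 that had been converted from CD4+ T cells of spleen and lymph node, and all were stimulated with antibodies to CD3 and CD28. WTATPgs cells had 400 µM ATPgs, an analogue of ATP, for 6 h, and WT cells had no ligand. ADO cells had 400 µM adenosine, the nucleoside without a phosphate chain, for 6 h, and DNT cells had no ligand. RA cells had 400 µM adenosine for 6 h in the presence of an A2a adenosine receptor (A2aR) inhibitor at 250 nM, and R cells had the inhibitor without adenosine. Each pair was a separate table with 3 libraries per group, and the labels do not say whether the 3 are independent cultures or mice. The p-values therefore describe the spread among these libraries, which may be technical.

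Chaperones bind proteins that are not yet folded or have lost their fold. HSP70 proteins hold such clients in cycles of ATP binding that J-domain proteins (Dnaja, Dnajb and Dnajc genes) start and nucleotide exchange factors (the HSP110 group, Bag proteins and Hspbp1) end, HSP90 finishes kinases and receptors, and the ring-shaped chaperonins (HSP60 in mitochondria, CCT in the cytosol) enclose their clients. The transcription factor HSF1 raises the inducible members under heat or other protein-damaging stress by binding heat shock elements, and T cells also raise chaperones when they are activated and start to grow.

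Libraries held 20156082 to 24331577 counts in genes. Of the T cell markers, Cd3g averaged 239 CPM in WTATPgs and 223 CPM in WT (CPM, the count relative to the library's scaled total, within each table). Cd4 averaged 2.14 and 9.33 CPM and Cd8a 5.66 and 11.7 CPM there. Summed over the 10 T cell markers, the level was 2245, 2221 and 2495 CPM in WTATPgs and 2462, 2443 and 2405 CPM in WT. With ATPgs 0 of the 10 rose and 4 fell, with a median log2 fold change of −0.25. WTATPgs replicate 3 stood apart from its group. Summed over 11 markers of macrophages, monocytes and neutrophils, the level was 191, 196 and 43.9 CPM in WTATPgs replicates 1 to 3 and 42.5, 39.2 and 38.3 CPM in WT. Over 6 B cell markers it was 18.1, 19.3 and 4.76 CPM in WTATPgs and 7.38, 7 and 7.26 CPM in WT. Of the 11, 5 rose and 0 fell with ATPgs, and the neutrophil genes S100a8 and S100a9 averaged 23.0 and 49.3 CPM in WTATPgs and 6.38 and 14.8 CPM in WT. These 2 genes were at 0 in R and averaged 0.0287 and 0.0146 CPM in RA, and were under 0.1 CPM on average in ADO and DNT. In the other sets the macrophage sum ran from 17 to 21.1 CPM in ADO and from 11.1 to 12.9 CPM in DNT. It ran from 16.8 to 18.6 CPM in RA and from 13.8 to 16.6 CPM in R. With adenosine, 3 rose and 1 fell of 5 tested markers of this list, and 3 rose and 4 fell of 10 T cell markers. Of 2 tested B cell markers 0 rose and 0 fell. Of all genes, 37.1% rose or fell with ATPgs and 50.2% with adenosine. The R libraries also differed among themselves, with 9.52% to 15.2% of counts in ribosomal protein genes against 10.8% to 11.5% in RA. In bulk RNA, fewer cells of a type and less RNA per cell cannot be told apart.

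The members took a smaller share of all counts with either ligand, but not with adenosine beside the inhibitor. They held 1.40%, 1.40% and 1.53% of counts in WTATPgs, against 1.71%, 1.71% and 1.70% in WT. The share was 1.74%, 1.73% and 1.74% in ADO, against 2%, 2.01% and 2% in DNT. With the inhibitor it was 2.15%, 2.18% and 2.18% in RA, against 2.08%, 1.98% and 2.12% in R. None of the 3 pairs of groups overlapped in these shares of unscaled counts, and with the inhibitor the share was the higher one in RA. That separation was not seen in scaled levels. Summed as CPM over the 71 tested members, RA had 20681, 21171 and 20445 and R had 21006, 18421 and 26009, groups that overlapped. In the sets without the inhibitor, every summed level with ligand stayed below every one without it. The 3 genes Hspa8, Hsp90ab1 and Hsp90aa1 made up 41.9% to 52.7% of the members' counts in each library. Per kilobase of exon, Hsp90ab1 led in the first 4 groups (919 CPM per kb in WTATPgs and 1132 in WT, 1199 in ADO and 1411 in DNT), followed by Hspa8, Hsp90aa1, Hspd1 and Cct2. In RA and R, Hspa8 led with 1252 and 1404 CPM per kb, ahead of Hsp90ab1 (978 and 989) and Hsp90aa1 (577 and 603). Levels in different tables were scaled separately, and the table and the cells' treatment there cannot be told apart.

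With ATPgs 13 members rose and 32 fell of 74 tested (edgeR's quasi-likelihood test, Benjamini-Hochberg adjusted p under 0.05 over all genes), beside 37.1% of all 15124 genes past the same threshold (17.7% higher and 19.4% lower). The members past it were 60.8% of those tested, and their median log2 fold change was −0.12, against −0.00062 over all genes. With adenosine 16 members rose and 27 fell of 72, or 59.7%, beside 50.2% of all 14512 genes (25.5% higher and 24.6% lower), with a median of −0.08. When counts were scaled by library size without TMM factors, the adenosine split was 23 higher and 26 lower members, and 4418 higher and 2850 lower genes overall. The 2 ligand comparisons share no library. Of the 72 members tested in both, 23 fell with both ligands, 10 rose with both and 0 went in opposite directions, beside 13.6%, 11.5% and 2.01% of the 14053 genes tested in both. Those lower with both included the 8 measured ring subunits of CCT, both cytosolic HSP90 genes, both mitochondrial chaperonin genes, Hspa8 and Hspa9. Those higher with both were Hspa1b, Hspa2, Hspa4l, Dnaja4, Dnajb4, Dnajb6, Dnajb14, Dnajc9, Dnajc12 and Hsf2. The 17 tested members that passed with neither ligand were Bag1, Bag6, Hspa13, Hspb6, Hspbap1, Hsf2bp, Hsf4, Dnaja1, Dnajb3, Dnajb12, Dnajc1, Dnajc4, Dnajc17, Dnajc19, Dnajc24, Dnajc25 and Dnajc30, and Dnajc28 and Hspb9, tested with ATPgs only, did not pass. With the inhibitor 0 of 71 members passed, beside 1.14% of all 12873 genes (0.287% higher and 0.855% lower), with 6 members at an unadjusted p under 0.05 and 2 called by DESeq2.

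**Figure D1:**
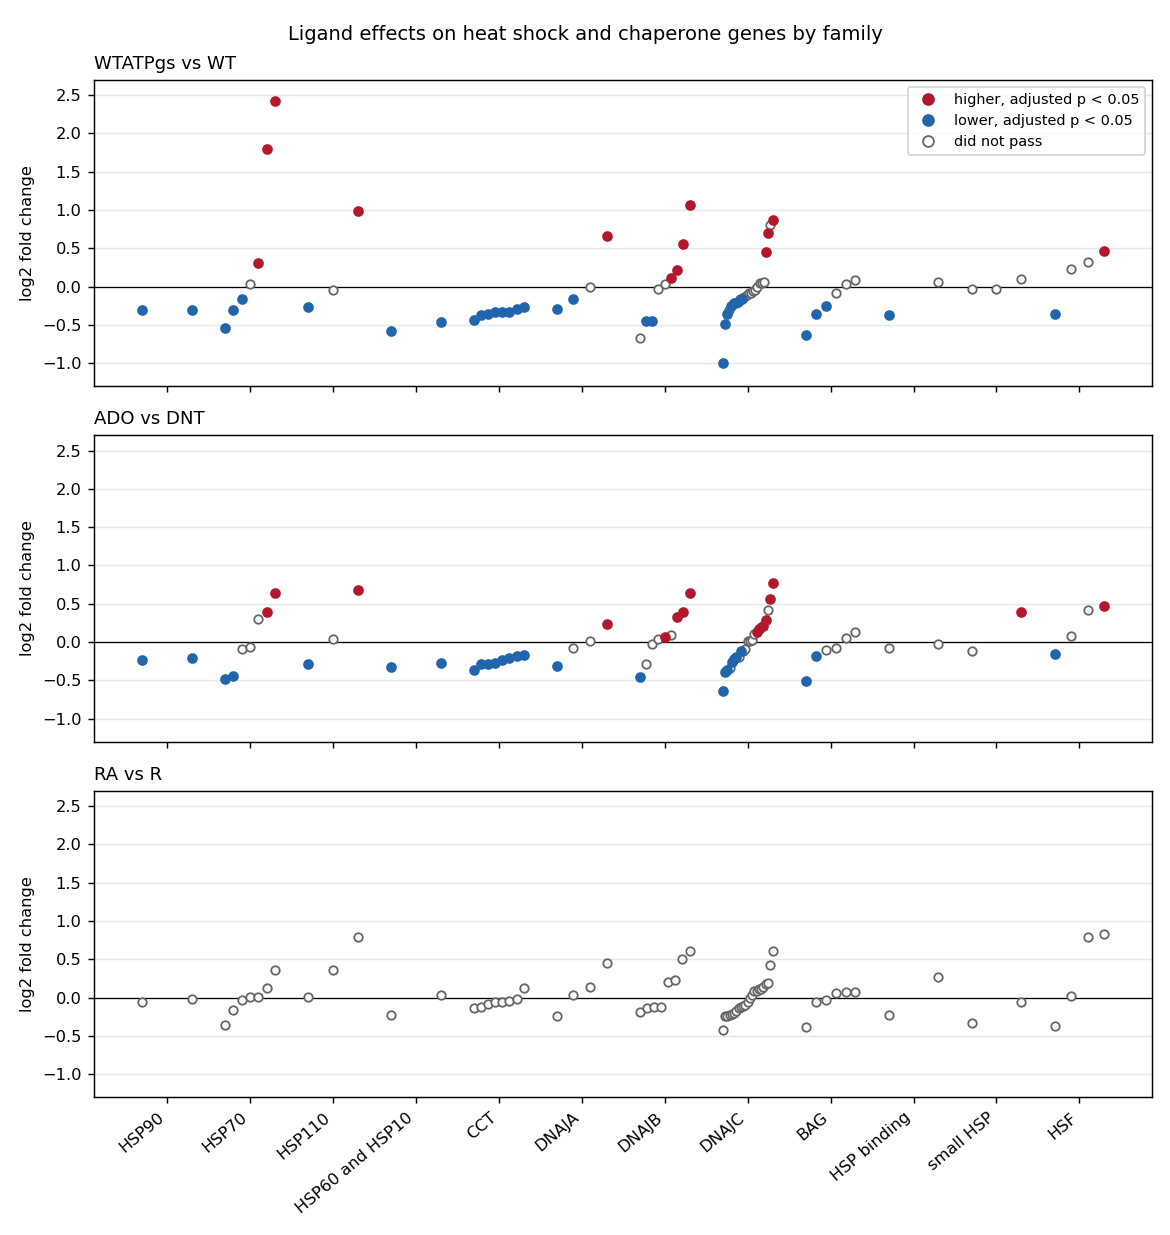
Log2 fold change of each tested member by family, for WTATPgs against WT (top), ADO against DNT (middle) and RA against R (bottom). Each point is a gene, red and blue points passed an adjusted p of 0.05 and open points did not. CCT, HSP90 and the HSP60 and HSP10 pair lie below 0 in the upper panels, Hspa1a and Hspa1b stand highest with ATPgs, and no point passed in the bottom panel.

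The inducible HSP70 genes gave the largest rise. Hspa1a (ENSMUSG00000091971, chr17:34969190-34972156, minus strand) and Hspa1b (ENSMUSG00000090877, chr17:34956436-34959238, minus strand) lie side by side in the major histocompatibility region and encode near-identical proteins that are low at rest and rise under stress. Hspa1a had 23.5, 24.7 and 14.2 CPM in WTATPgs and 4.38, 3.41 and 3.85 CPM in WT. All WTATPgs libraries lay above all WT libraries, and replicate 3 was the lowest of the WTATPgs libraries. Hspa1a rose by 2.42 ± 0.23 on the log2 scale, 5.35-fold (edgeR adjusted p = 0.000324, ± SE with n = 3 libraries in each group, here and for every later fold change). Hspa1b had 55.7, 55 and 35.1 CPM in WTATPgs and 13.3, 14.2 and 14.6 CPM in WT, and rose by 1.79 ± 0.19 (edgeR adjusted p = 0.000852). With adenosine the levels were closer to those without ligand. Hspa1b had 14.3, 12.6 and 14.1 CPM in ADO and 9.08, 8.16 and 9.02 CPM in DNT and rose by 0.64 ± 0.09 (edgeR adjusted p = 1.13e-07). Hspa1a had 6.43, 4.48 and 5.46 CPM in ADO and 3.84, 4.82 and 4.69 CPM in DNT, groups that overlapped, and did not pass (0.30 ± 0.15, edgeR adjusted p = 0.0868). The ATPgs effect exceeded the adenosine effect by 2.13 ± 0.29 for Hspa1a and by 1.15 ± 0.21 for Hspa1b (edgeR adjusted p = 0.000306 and 0.00302). The macrophage marker sum given above also moved with ATPgs in replicates 1 and 2, and its part in this rise was not tested. In replicate 3 that sum was 43.9 CPM, and Hspa1a and Hspa1b were at 14.2 and 35.1 CPM, each the lowest of the WTATPgs libraries. Of the 50-base words in their exons, 60.3% of those of Hspa1a and 62.3% of those of Hspa1b also occur in other genes, mainly in each other, so how reads were divided between them is uncertain.

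The promoters of this pair are shown because this pair rose most. The RefSeq windows (GRCm38.p6, 250 bases before to 50 after the start) of Hspa1a and Hspa1b matched at 296 of 300 bases, or 98.7%, and each held 1 pair of facing heat shock units, either GAA, any 2 bases and TTC, or TTC, any 2 bases and GAA, patterns that read the same on both strands. The stretches below run 5′ to 3′ on the gene's strand with the units in capitals, at chr17:34972233-34972280 and chr17:34959315-34959362, both on the minus strand, 104 to 97 bases before the start. Dnajb4, described below, is shown beside them with its unit pair 14 to 7 bases before an inner start, at chr3:152193846-152193879 on the minus strand. The other Dnajb4 window and the window of Hspa4l, which also rose with both ligands, held no such pair. These 3 stretches were chosen after the values were seen.
Hspa1a: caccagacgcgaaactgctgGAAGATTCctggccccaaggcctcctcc
Hspa1b: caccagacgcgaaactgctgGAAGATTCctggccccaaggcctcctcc
Dnajb4: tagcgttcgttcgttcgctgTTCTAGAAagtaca

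Windows were found for 74 of the 92 genes, 94 windows in all. The pair of units was present in 24 member windows (25.5%), beside 4946 of all 32851 windows in the table (15.1%). Of the members with a window it was found in 5 of 12 that rose with ATPgs, in 7 of 23 that fell and in 4 of 24 that did not pass. With adenosine it was found in 5 of 14 that rose, 7 of 18 that fell and 4 of 25 that did not pass. A match describes the letters in the window and does not show that a factor binds there.

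Of the other HSP70 genes, Hspa8 and Hspa9 fell and Hspa2 rose with both ligands. Hspa8 (ENSMUSG00000015656, chr9:40800984-40810087, plus strand) encodes the constitutive cytosolic HSP70, which folds new proteins at all times. It had 2037, 2029 and 2623 CPM in WTATPgs and 3245, 3237 and 3220 CPM in WT, and fell by 0.54 ± 0.10 (edgeR adjusted p = 0.01). With adenosine it had 3246, 3227 and 3188 CPM in ADO and 4454, 4537 and 4481 CPM in DNT, and fell by 0.48 ± 0.01 (edgeR adjusted p = 1.17e-32). Within each set, every library with ligand lay below every library without it, and the ATPgs call was lost when low genes were kept in the fit (edgeR adjusted p = 0.0729). In 38.6% of its 50-base words Hspa8 matches other genes. Hspa9, the mitochondrial HSP70 that pulls proteins into the matrix, had 594, 589 and 618 CPM in WTATPgs and 744, 757 and 730 CPM in WT and fell by 0.31 ± 0.03. With adenosine Hspa9 had 535, 532 and 551 CPM in ADO and 729, 725 and 735 CPM in DNT and fell by 0.44 ± 0.02 (edgeR adjusted p = 3.05e-25), and the ATPgs effect was the less negative by 0.13 ± 0.04 (edgeR adjusted p = 0.0433), a call lost in 11 of 19 alternatives. Hspa2, a form abundant in the testis, rose by 0.30 ± 0.09 with ATPgs and rose by 0.39 ± 0.07 with adenosine, at 27.4, 25.3 and 21.9 CPM in WTATPgs and 20.2, 19.5 and 20.8 CPM in WT. Hspa14, which works at the ribosome, fell by 0.16 ± 0.05 with ATPgs and did not pass with adenosine (−0.06 ± 0.04, edgeR adjusted p = 0.152), and Hspa13, a microsomal relative, passed with neither (0.03 ± 0.04 and −0.09 ± 0.04). So of 7 HSP70 genes tested, 3 rose and 3 fell with ATPgs, and 2 rose and 2 fell with adenosine. These were 85.7% and 57.1% of them, beside 37.1% and 50.2% of all genes.

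Of the HSP110 group, which frees ADP from HSP70, 1 gene rose with both ligands. Hspa4l (ENSMUSG00000025757, chr3:40744495-40796103, plus strand) had 143, 142 and 104 CPM in WTATPgs and 63.4, 65.4 and 67 CPM in WT. It rose by 0.99 ± 0.13 (edgeR adjusted p = 0.00157), and again WTATPgs replicate 3 was the lowest of its group but above every WT library. With adenosine Hspa4l had 38.8, 38.6 and 44.3 CPM in ADO and 24.7, 25.2 and 25.8 CPM in DNT and rose by 0.69 ± 0.06 (edgeR adjusted p = 2.1e-14). Its relatives did not follow. Hspa4 had 440, 435 and 443 CPM in WTATPgs and 445, 476 and 444 CPM in WT and did not pass (−0.05 ± 0.04, edgeR adjusted p = 0.325), but fell by 0.29 ± 0.02 with adenosine, where it had 409, 399 and 403 CPM in ADO and 493, 504 and 486 CPM in DNT. Hsph1 (HSP105) fell by 0.26 ± 0.06 with ATPgs (edgeR adjusted p = 0.00939), at 249, 247 and 288 CPM in WTATPgs and 322, 305 and 312 CPM in WT, and did not pass with adenosine (0.04 ± 0.02, edgeR adjusted p = 0.111). The Hsph1 call was lost without WTATPgs replicate 1 or 2 or WT replicate 1. The effects of the 2 ligands differed for Hspa4 (0.25 ± 0.05, edgeR adjusted p = 0.00136) and for Hsph1 (−0.30 ± 0.07, edgeR adjusted p = 0.0105), and for Hspa4l the difference of 0.31 ± 0.14 did not pass (edgeR adjusted p = 0.185, 95% interval −0.01 to 0.62). Without WTATPgs replicate 3 the Hspa4l difference was 0.43 ± 0.07 and passed.

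**Figure D2:**
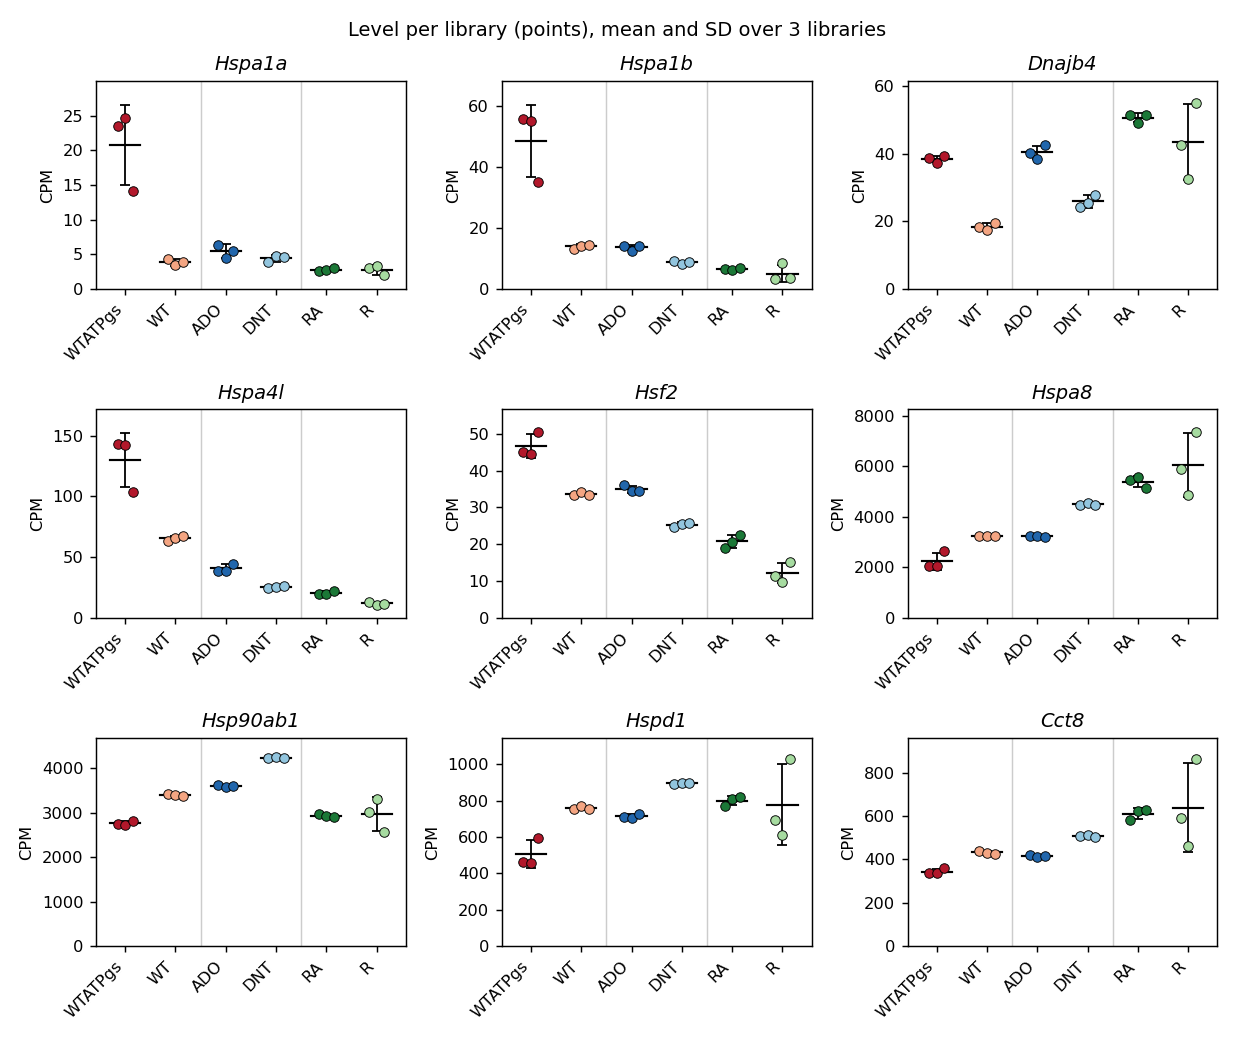
CPM of 9 members in each of the 18 libraries, with WTATPgs, ADO and RA each left of the group without that ligand. Points are libraries, the wide bar is the mean and the thin bars are the SD of 3 libraries. Hspa1a and Hspa1b are highest in WTATPgs, Hspa8, Hsp90ab1, Hspd1 and Cct8 are lower with ATPgs and with adenosine, and the R libraries scatter widely.

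Both cytosolic HSP90 genes fell with both ligands. Hsp90ab1 (ENSMUSG00000023944, chr17:45567775-45573271, minus strand), the constitutive form, had 2738, 2724 and 2807 CPM in WTATPgs and 3418, 3393 and 3370 CPM in WT. It fell by 0.30 ± 0.03 (edgeR adjusted p = 9.24e-05). With adenosine it had 3611, 3572 and 3603 CPM in ADO and 4216, 4245 and 4227 CPM in DNT and fell by 0.23 ± 0.01 (edgeR adjusted p = 2.22e-20). The spread within each group was narrow and within each set no library with ligand reached one without it. Hsp90aa1, the inducible form, had 1008, 1014 and 1128 CPM in WTATPgs and 1313, 1284 and 1278 CPM in WT and fell by 0.30 ± 0.05. In the adenosine set Hsp90aa1 had 1227, 1186 and 1235 CPM in ADO and 1402, 1410 and 1419 CPM in DNT and fell by 0.21 ± 0.02 (edgeR adjusted p = 1.54e-15). The differences between the ligands were −0.06 ± 0.03 for Hsp90ab1 and −0.08 ± 0.06 for Hsp90aa1, and neither passed (95% intervals −0.13 to 0.01 and −0.20 to 0.04). Hsp90aa1 shares 47.5% of its 50-base words with other genes.

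The mitochondrial chaperonin genes fell as a pair. Hspd1 (HSP60, ENSMUSG00000025980, chr1:55077835-55088243, minus strand) forms the ring, and Hspe1 (HSP10, ENSMUSG00000073676, chr1:55088132-55091307, plus strand) its lid, and the 2 genes stand head to head. Hspd1 had 465, 457 and 593 CPM in WTATPgs and 755, 770 and 752 CPM in WT, and fell by 0.59 ± 0.10 (edgeR adjusted p = 0.00587). Hspe1 had 103, 95 and 122 CPM in WTATPgs and 156, 139 and 146 CPM in WT, and fell by 0.46 ± 0.09 (edgeR adjusted p = 0.00773). WTATPgs replicate 3 was the nearest to WT for both genes, and the groups did not overlap. The Hspd1 call with ATPgs was lost when low genes were kept in the fit (edgeR adjusted p = 0.0549). With adenosine Hspd1 had 708, 707 and 728 CPM in ADO and 892, 897 and 896 CPM in DNT and fell by 0.33 ± 0.02, and Hspe1 fell by 0.28 ± 0.03 (edgeR adjusted p = 3.35e-21 and 9.14e-13). Without WTATPgs replicate 3 the ATPgs effect on Hspd1 was −0.72 ± 0.02, and it then differed from the adenosine effect by −0.40 ± 0.03, whereas with all libraries the difference of −0.25 ± 0.13 did not pass (edgeR adjusted p = 0.214). Annotated exons of the 2 genes overlap by 112 bases on opposite strands, and whether counting used strand is not given in the sources used here. Hspd1 also shares 39.7% and Hspe1 18.4% of 50-base words with other genes.

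The stretch between the RefSeq starts of these genes is shown because it holds the longest heat shock element among the member windows. The element of 3 units, in which GAA, TTC and GAA, or TTC, GAA and TTC, follow each other with 2 free bases between them, each pattern being the other's reverse complement, was found in 6 of 94 member windows (6.38%), beside 198 of all 32851 (0.6%). These windows belong to 4 of the 74 genes with a window, Hspd1, Hspe1, Dnajb6 and Hsph1, beside 179 of all 27025 genes. Dnajb6 and Hsph1 each have 2 overlapping windows over the same match, and Hspd1 and Hspe1 share theirs. The windows are therefore not separate sites. In Hsph1 the match lies after the start. In the shared promoter 2 overlapping matches lie 144 to 127 bases before the RefSeq start of Hspd1 on the minus strand and 89 to 72 before that of Hspe1 on the plus strand. The stretch shown, with 6 flanking bases on each side, is chr1:55088053-55088082. The stretch shown for Dnajb6, with the same flanks, is chr5:29735846-29735870 on the plus strand. Both stretches lie inside annotated gene spans, that of Hspd1 (chr1:55077835-55088243) and that of Dnajb6 (chr5:29735688-29818134). Positions before the start therefore hold for the RefSeq starts used here and not for every annotated transcript. Capitals mark the element, and the first line is the reverse complement of the second.
Hspd1: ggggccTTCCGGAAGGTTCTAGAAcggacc
Hspe1: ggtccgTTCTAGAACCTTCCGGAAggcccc
Dnajb6: ctccgaGAATCTTCCGGAAcgctag

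The 3 genes whose windows hold this element before the RefSeq start, of which Hspd1 and Hspe1 share theirs, did not move one way. Hspd1 and Hspe1 fell, as given above, and Dnajb6, which keeps aggregation-prone proteins soluble, changed little. Dnajb6 had 174, 177 and 167 CPM in WTATPgs and 157, 163 and 159 CPM in WT, and rose by 0.12 ± 0.04 (edgeR adjusted p = 0.0437), and with adenosine it rose by 0.07 ± 0.03 (edgeR adjusted p = 0.0269). The ATPgs call was lost in 8 of 12 alternatives and the adenosine call in 6 of 12 (edgeR and DESeq2 adjusted p up to 0.19 and 0.103).

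CCT, the ring of 8 kinds of subunit that folds actin and tubulin, fell as a whole. All 8 subunit genes (Tcp1, Cct2, Cct3, Cct4, Cct5, Cct6a, Cct7 and Cct8) fell with ATPgs, by 0.26 to 0.43, and all 8 fell with adenosine, by 0.17 to 0.36. Of all genes tested, 19.4% fell with ATPgs and 24.6% with adenosine. The family medians were −0.33 and −0.25, beside −0.00062 and 0.0022 over all genes tested. Cct8 (ENSMUSG00000025613, chr16:87483326-87495873, minus strand) had 337, 336 and 359 CPM in WTATPgs and 439, 430 and 427 CPM in WT, and fell by 0.33 ± 0.04 (edgeR adjusted p = 0.000274). With adenosine Cct8 had 420, 411 and 418 CPM in ADO and 508, 512 and 502 CPM in DNT, and fell by 0.29 ± 0.02 (edgeR adjusted p = 2.95e-17). Cct2 had 423, 422 and 471 CPM in WTATPgs and 565, 573 and 559 CPM in WT, and 518, 510 and 536 CPM in ADO and 626, 632 and 628 CPM in DNT. For both subunits the libraries with ligand lay below those without it in the same set. Cct2 fell by 0.37 ± 0.05 and fell by 0.27 ± 0.02, Cct5 fell by 0.26 ± 0.04 and fell by 0.20 ± 0.02, and Tcp1 fell by 0.33 ± 0.05 and fell by 0.17 ± 0.02, with ATPgs and adenosine in turn. The deepest fall was that of Cct6a, −0.43 ± 0.07 with ATPgs and −0.36 ± 0.02 with adenosine. The test of a difference between the ligands was passed by Cct7 (−0.15 ± 0.05, edgeR adjusted p = 0.0468), a call lost in 12 of 19 alternatives, and by none of the other 7. Without WTATPgs replicate 3, 7 of the 8 subunits passed it, with a median difference of −0.17, beside 33% of all genes (18.8% more negative with ATPgs). The subunit genes Tcp1, Cct6a, Cct7 and Cct8 overlap exons of other genes on the opposite strand. The relatives Cct6b and Cct8l1, with 73 and 9 counts over all libraries, were too low to test.

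**Figure D3:**
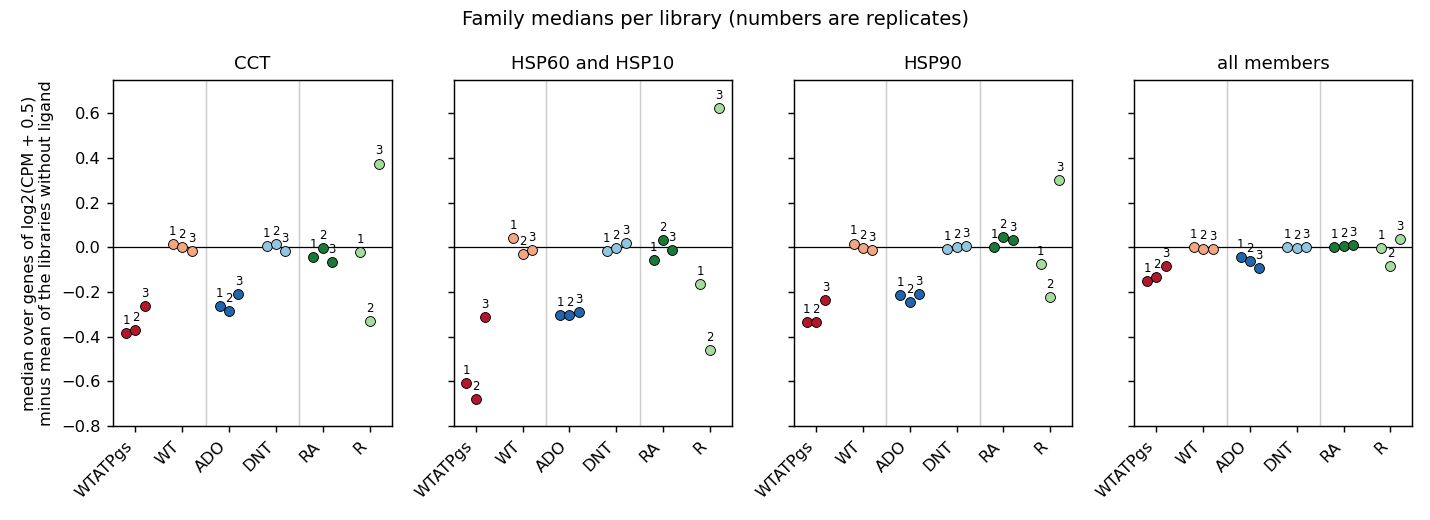
Median over the tested genes of a family of log2(CPM + 0.5) in each library, relative to the mean of the libraries without ligand in the same set. CCT lies at −0.38, −0.37 and −0.26 in WTATPgs and at −0.26, −0.28 and −0.21 in ADO, and R replicates 2 and 3 lie at −0.33 and 0.38.

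J-domain genes, which bring clients to HSP70, moved both ways. Of the 4 DNAJA genes, 1 rose and 2 fell with ATPgs (75%), and 1 rose and 1 fell with adenosine (50%). Of all genes, 37.1% and 50.2% passed. Dnaja2, a cytosolic partner of Hspa8, had 222, 230 and 243 CPM in WTATPgs and 292, 278 and 282 CPM in WT and fell by 0.29 ± 0.04, and it fell by 0.32 ± 0.02 with adenosine (edgeR adjusted p = 9.54e-16). Dnaja1, another cytosolic DNAJA protein, passed with neither ligand (−0.01 ± 0.05 and 0.02 ± 0.02). Dnaja4 had 17.5, 18.9 and 22 CPM in WTATPgs and 10, 15.1 and 11.7 CPM in WT and rose by 0.67 ± 0.15 (edgeR adjusted p = 0.0114), and with adenosine rose by 0.24 ± 0.09 (edgeR adjusted p = 0.0176), a call lost in 4 of 12 alternatives. Without WT replicate 3 the ATPgs call on Dnaja4 was lost too. Dnaja3, a mitochondrial form, fell by 0.16 ± 0.04 with ATPgs. Among 9 DNAJB genes tested, 4 rose and 2 fell with ATPgs (66.7%), and 4 rose and 1 fell with adenosine (55.6%). With adenosine the DNAJA and DNAJB shares were thus near that of all genes. Dnajb4 (ENSMUSG00000028035, chr3:152178511-152210302, minus strand), a partner of cytosolic HSP70, had 38.7, 37.4 and 39.3 CPM in WTATPgs and 18.4, 17.4 and 19.7 CPM in WT. It rose by 1.06 ± 0.06, 2.08-fold (edgeR adjusted p = 1.07e-05), and unlike Hspa1a it was as high in WTATPgs replicate 3 as in the others. With adenosine Dnajb4 had 40.2, 38.6 and 42.5 CPM in ADO and 24.3, 25.6 and 27.9 CPM in DNT and rose by 0.64 ± 0.06, and the ATPgs effect exceeded this by 0.42 ± 0.09 (edgeR adjusted p = 0.00521).

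Dnajb1, the main inducible HSP40, behaved otherwise. It had 89.2, 88.9 and 86.7 CPM in WTATPgs and 88.5, 85.1 and 85.4 CPM in WT and did not pass (0.03 ± 0.04, edgeR adjusted p = 0.56). With adenosine it had 88, 94.1 and 88.7 CPM in ADO and 71.2, 71.9 and 72.2 CPM in DNT and rose by 0.33 ± 0.04 (edgeR adjusted p = 1.27e-10), and the difference between the ligands was −0.29 ± 0.05 (edgeR adjusted p = 0.00139). Dnajb5 had 23.3, 23.7 and 23.4 CPM in WTATPgs and 31, 33.5 and 31.5 CPM in WT and fell by 0.45 ± 0.06, did not pass with adenosine (0.09 ± 0.06, edgeR adjusted p = 0.207), and the effects differed by −0.53 ± 0.09 (edgeR adjusted p = 0.00105). Dnajb14, anchored in the endoplasmic reticulum membrane, rose by 0.55 ± 0.09 with ATPgs and rose by 0.39 ± 0.15 with adenosine. Dnajb3, a low gene at 0.39, 0.349 and 0.366 CPM in WTATPgs and 0.461, 0.599 and 0.708 CPM in WT, passed with neither ligand (−0.67 ± 0.34 and −0.28 ± 0.42). Dnajb13, known from the sperm axoneme, fell by 0.45 ± 0.11 and fell by 0.46 ± 0.10, and its exons overlap those of Ucp2 on the opposite strand.

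**Figure D4:**
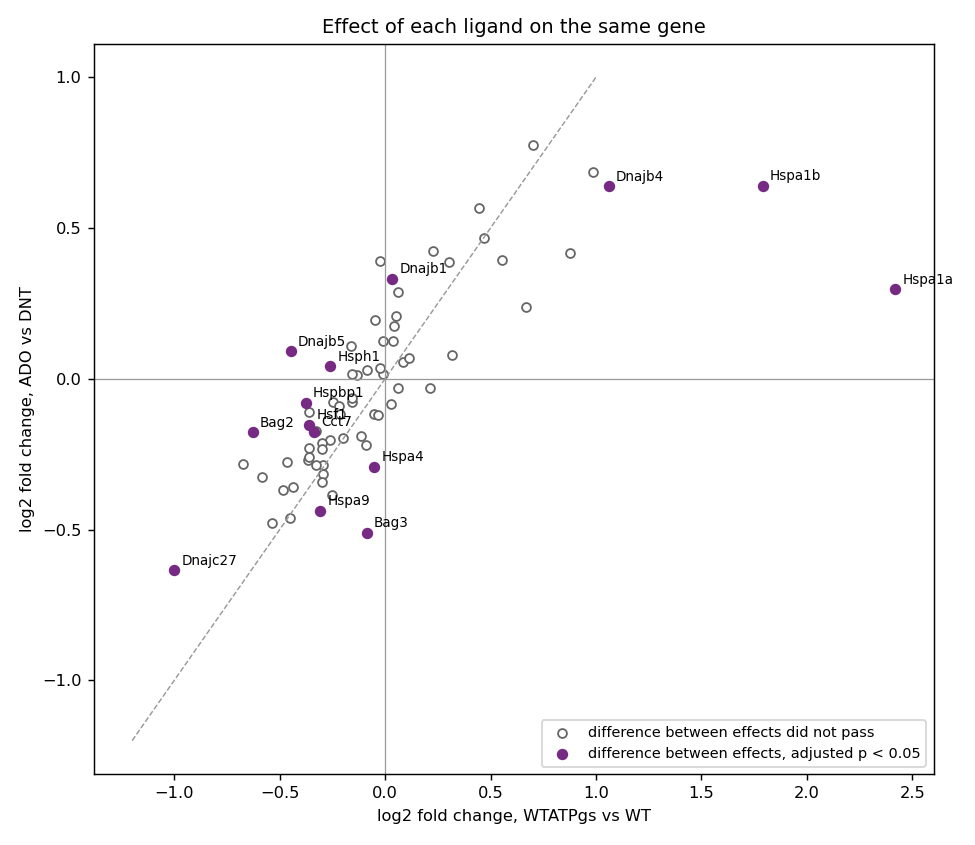
Log2 fold change in ADO against DNT (vertical axis) over that in WTATPgs against WT (horizontal axis) for the 72 members tested in both. Filled points are genes whose effects differed at an adjusted p under 0.05, and the dashed line marks equal effects. Hspa1a lies farthest from the line, at 2.42 with ATPgs and 0.30 with adenosine.

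The DNAJC family holds J proteins with the most varied tasks. Of 24 tested, 3 rose and 7 fell with ATPgs, and of 23, 6 rose and 7 fell with adenosine. The shares past the threshold, 41.7% and 56.5%, were near those of all genes, 37.1% and 50.2%. Dnajc27, a Rab-like GTPase with a J domain, gave the deepest fall of any member with either ligand. It had 11.2, 10.1 and 8.83 CPM in WTATPgs and 19.3, 19.8 and 21.3 CPM in WT, and fell by 1.0 ± 0.10 (edgeR adjusted p = 0.000154). With adenosine it had 14.4, 14.6 and 15.4 CPM in ADO and 24, 22.2 and 22.7 CPM in DNT and fell by 0.64 ± 0.07 (edgeR adjusted p = 1.84e-10). Dnajc9, a carrier of histones H3 and H4, had 79.1, 81.6 and 91.2 CPM in WTATPgs and 63, 61.3 and 60.6 CPM in WT and rose by 0.45 ± 0.06. With adenosine Dnajc9 had 89.2, 97.4 and 91.7 CPM in ADO and 59.8, 66.1 and 62.3 CPM in DNT and rose by 0.57 ± 0.04 (edgeR adjusted p = 5.21e-17). Dnajc12, a helper of aromatic amino acid hydroxylases, rose by 0.70 ± 0.12 and rose by 0.77 ± 0.13, at levels of 7.89, 8.65 and 7.36 CPM in ADO and 5.03, 4.96 and 3.97 CPM in DNT. The mitochondrial Dnajc11 had 127, 129 and 150 CPM in WTATPgs and 191, 190 and 186 CPM in WT and fell by 0.48 ± 0.06, and fell by 0.37 ± 0.03 with adenosine. Dnajc16 fell by 0.20 ± 0.05 and fell by 0.20 ± 0.05. Dnajc2, which binds the ribosome with Hspa14, fell by 0.36 ± 0.06 and fell by 0.26 ± 0.03, and Dnajc21, needed to build the large subunit, fell by 0.25 ± 0.08 and fell by 0.39 ± 0.04. Past the threshold with adenosine and not with ATPgs were Dnajc7 (0.21 ± 0.03), Dnajc10 (0.12 ± 0.04), Dnajc14 (0.18 ± 0.04) and Dnajc18 (0.29 ± 0.07) upward and Dnajc13 (−0.22 ± 0.03) and Dnajc5 (−0.12 ± 0.03) downward. Past it with ATPgs and not with adenosine were Dnajc6, the clathrin-uncoating auxilin, upward (0.88 ± 0.21), and Dnajc8 (−0.16 ± 0.05) and Dnajc15 (−0.22 ± 0.05) downward. None of these 9 genes passed the test of the difference between the ligands.

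Bag proteins and Hspbp1, which release clients from HSP70, fell or did not pass. Of 6 Bag genes 3 fell with ATPgs and 2 with adenosine, and 0 rose, so 50% and 33.3% passed, beside 37.1% and 50.2% of all genes. Bag2, which restrains the ubiquitin ligase that acts on HSP70 clients, had 8.36, 9.3 and 10.2 CPM in WTATPgs and 14.4, 13.9 and 14.9 CPM in WT. It fell by 0.63 ± 0.10 with ATPgs (edgeR adjusted p = 0.00145) and fell by 0.18 ± 0.07 with adenosine (edgeR adjusted p = 0.0326), a call lost in 6 of 12 alternatives, and the difference was −0.45 ± 0.12 (edgeR adjusted p = 0.0141). Bag3, which directs clients to autophagy and is itself an HSF1 target, showed the reverse order. It had 17.1, 17.3 and 17.2 CPM in ADO and 24.8, 26.8 and 22 CPM in DNT and fell by 0.51 ± 0.07 (edgeR adjusted p = 4.31e-08), against −0.09 ± 0.08 with ATPgs, and the ligand effects differed by 0.43 ± 0.11 (edgeR adjusted p = 0.0135). Bag4 (−0.36 ± 0.08) and Bag5 (−0.25 ± 0.05) fell with ATPgs. Bag1 (0.04 ± 0.05 and 0.12 ± 0.13) and Bag6 (0.09 ± 0.04 and 0.06 ± 0.02), which escorts membrane proteins, passed with neither ligand. Hspbp1 had 52.7, 57 and 57.9 CPM in WTATPgs and 73, 73.7 and 71 CPM in WT and fell by 0.38 ± 0.05, and it did not pass with adenosine (−0.08 ± 0.04, edgeR adjusted p = 0.0879), with a difference of −0.29 ± 0.07 (edgeR adjusted p = 0.00767). Hspbap1 passed with neither (0.06 ± 0.13 and −0.03 ± 0.16).

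Small heat shock proteins were scarce. Of 8 genes, 3 were tested with ATPgs and 2 with adenosine. Hspb1 (HSP27, a holder of unfolded proteins) had 74 counts over all libraries and at most 0.529 CPM in any. Hspb6 had 2.38, 1.96 and 1.46 CPM in WTATPgs and 1.89, 1.8 and 2.26 CPM in WT and Hspb9 0.476, 0.436 and 0.448 CPM in WTATPgs and 0.461, 0.46 and 0.354 CPM in WT, and neither passed (−0.04 ± 0.23 and 0.09 ± 0.33). Hspb11, which despite its name belongs to the transport machinery of cilia, rose by 0.39 ± 0.16 with adenosine (edgeR adjusted p = 0.0392), at 5.23, 4.17 and 4.1 CPM in ADO and 2.69, 3.8 and 3.84 CPM in DNT, a call lost in 4 of 12 alternatives.

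The heat shock factors moved in opposite directions. Hsf1, the main activator of the stress response, had 58.4, 62.7 and 60.7 CPM in WTATPgs and 76.8, 76.4 and 79.9 CPM in WT, and fell by 0.36 ± 0.05 (edgeR adjusted p = 0.000459). With adenosine Hsf1 had 82.7, 88 and 86.9 CPM in ADO and 95.2, 95.7 and 95.4 CPM in DNT and fell by 0.15 ± 0.04 (edgeR adjusted p = 0.000269), and the difference was −0.20 ± 0.06 (edgeR adjusted p = 0.0247), lost in 5 of 19 alternatives. Hsf2, a related factor that binds the same elements, had 45.1, 44.4 and 50.4 CPM in WTATPgs and 33.5, 34.3 and 33.5 CPM in WT, and rose by 0.47 ± 0.06 (edgeR adjusted p = 0.000555). With adenosine Hsf2 had 36.1, 34.5 and 34.4 CPM in ADO and 24.6, 25.6 and 25.8 CPM in DNT and rose by 0.47 ± 0.06 (edgeR adjusted p = 1.08e-09). Within each set the libraries with and without ligand did not overlap for either gene. Hsf2bp (0.23 ± 0.21 and 0.42 ± 0.19) and Hsf4 (0.32 ± 0.37 and 0.08 ± 0.17), a factor of the lens, passed with neither.

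Genes outside the chosen symbols that work with these chaperones were counted in the same tests. Of all genes, 37.1% passed with ATPgs and 50.2% with adenosine. Of 16 HSP90 cochaperone genes, 2 rose and 9 fell with ATPgs (68.8%), and 3 rose and 7 fell with adenosine (62.5%). Cdc37, which loads kinases onto HSP90, fell by 0.29 ± 0.03 and fell by 0.26 ± 0.02, Ptges3 (p23) fell by 0.36 ± 0.06 and fell by 0.31 ± 0.03, and Ppid fell by 0.48 ± 0.12 and fell by 0.38 ± 0.03. Unc45a, a myosin chaperone, rose by 0.35 ± 0.06 and rose by 0.13 ± 0.03. Prefoldin hands actin and tubulin to CCT. Of 8 prefoldin and phosducin-like genes, 1 rose and 2 fell with ATPgs, and 2 rose and 2 fell with adenosine. These shares, 37.5% and 50%, were near those of all genes. Pfdn2 was at −0.49 ± 0.05 and −0.21 ± 0.04. Of 8 genes of mitochondrial chaperone partners and proteases, 0 rose and 5 fell with each ligand (62.5%). Clpp was at −0.28 ± 0.04 and −0.25 ± 0.05. Of 25 proteasome subunit genes, 0 rose and 24 fell with ATPgs (96%, median −0.27), and 1 rose and 19 fell with adenosine (80%, median −0.12). Psmd11 fell by 0.38 ± 0.04 and fell by 0.30 ± 0.03. With the inhibitor 0 genes of these 4 lists passed in either direction, beside only 1.14% of all genes.

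Of 7 tested stress genes outside the rule that HSF1 can induce, 5 rose and 0 fell with ATPgs, and 2 rose and 2 fell with adenosine. These were 71.4% and 57.1%, beside 37.1% and 50.2% of all genes. Hmox1, the heme oxygenase gene, had 266, 272 and 323 CPM in WTATPgs and 171, 163 and 162 CPM in WT and rose by 0.80 ± 0.07, whereas with adenosine it had 56.8, 58.4 and 55.8 CPM in ADO and 82.7, 79.7 and 76.3 CPM in DNT and fell by 0.48 ± 0.04. Sqstm1 (p62, an autophagy receptor) rose by 0.60 ± 0.09 and rose by 0.10 ± 0.02, and Ubb, a ubiquitin gene, rose by 0.21 ± 0.03 and rose by 0.23 ± 0.02. Of 10 immediate early genes, 7 rose and 1 fell with ATPgs, and 4 rose and 3 fell with adenosine, or 80% and 70% past the threshold, beside 37.1% and 50.2% of all genes. Summed over the list, the level was 2751, 2783 and 2062 CPM in WTATPgs and 1760, 1771 and 1762 CPM in WT. WTATPgs replicate 3 was thus the nearest to WT here as for the macrophage markers (191, 196 and 43.9 CPM), whose part in this rise was not tested. Fos rose by 2.17 ± 0.28 and rose by 0.97 ± 0.09, Dusp1 rose by 1.88 ± 0.23 and rose by 0.56 ± 0.09, and Atf3 rose by 0.36 ± 0.09 with ATPgs and fell by 0.63 ± 0.04 with adenosine. With the inhibitor, Atf3 was the 1 gene of these 2 lists to pass, beside 1.14% of all genes, and it fell by 1.02 ± 0.17 (edgeR adjusted p = 0.0169).

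With the A2aR inhibitor present, the test of adenosine found no member past the threshold, and the R libraries were far apart. Hspa8 had 5446, 5556 and 5150 CPM in RA and 5908, 4841 and 7365 CPM in R. Hspd1 had 772, 807 and 821 CPM in RA and 692, 612 and 1030 CPM in R. Cct2 had 559, 568 and 558 CPM in RA and 619, 538 and 676 CPM in R. For all 3 genes R replicate 2 was the lowest and replicate 3 the highest of the 6 libraries, with RA between them. The effects were −0.17 ± 0.22 for Hspa8, 0.04 ± 0.22 for Hspd1, −0.12 ± 0.17 for Cct2 and −0.02 ± 0.20 for Hsp90ab1. Their 95% intervals, −0.67 to 0.33, −0.45 to 0.53, −0.50 to 0.26 and −0.45 to 0.42, contain the size of the falls seen with adenosine alone, so at this spread such falls were not detectable for these genes. Of the 27 members that fell with adenosine, the interval with the inhibitor contained the fall for 24. For the other 3 it did not reach it, with lower ends of −0.40 for Hspa9, −0.38 for Bag3 and −0.32 for Dnajc27, against falls of 0.44, 0.51 and 0.64. For Hspa1a and Hspa1b the values were 0.0043 ± 0.25 and 0.35 ± 0.34, at 6.6, 6.34 and 6.93 CPM in RA and 3.21, 8.48 and 3.66 CPM in R for Hspa1b. Dnajb4 had 51.5, 49.2 and 51.4 CPM in RA and 42.5, 32.7 and 55.1 CPM in R, and its effect was 0.23 ± 0.20 (95% interval −0.22 to 0.67). The values were −0.06 ± 0.33 for Hsp90aa1, −0.23 ± 0.32 for Hspe1, −0.03 ± 0.17 for Hspa9, 0.01 ± 0.18 for Hspa4, 0.36 ± 0.17 for Hsph1, 0.20 ± 0.17 for Dnajb1 and −0.37 ± 0.17 for Hsf1.

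The members nearest the threshold with the inhibitor lay on the higher side. Hspa4l had 19.8, 19.2 and 21.9 CPM in RA and 13.1, 10.6 and 11.5 CPM in R, groups that did not overlap, with an effect of 0.79 ± 0.17 (edgeR adjusted p = 0.0598). Hsf2 had 19, 20.6 and 22.6 CPM in RA and 11.4, 9.7 and 15 CPM in R, with 0.79 ± 0.20 (edgeR adjusted p = 0.109). Dnajc9 had 109, 119 and 103 CPM in RA and 70.1, 57.6 and 90.4 CPM in R, with 0.60 ± 0.19 (edgeR adjusted p = 0.208). Each of these genes rose with adenosine alone. Hsf2bp, at 3.94, 5.29 and 3.79 CPM in RA and 2.31, 1.91 and 3.19 CPM in R, gave 0.83 ± 0.26 (edgeR adjusted p = 0.203). Without R replicate 3, 5 members rose (Hspa4l, Hsf2, Hsf2bp, Dnajc9 and Dnajb4) and Hspa2 fell, beside 13% of all genes past the threshold (5.5% higher and 7.54% lower). Without R replicate 2 the count was 1 of 71 members, beside 1.68% of all genes.

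The direct test of whether the inhibitor altered the adenosine effect called 1 of 72 members (1.39%), beside 4.05% of all 14965 genes (0.909% higher and 3.14% lower). That gene was Dnajc27, with 7.59, 7.21 and 6.46 CPM in RA and 7.08, 7.22 and 5.32 CPM in R, groups that overlapped, and a difference of 0.73 ± 0.16 (edgeR adjusted p = 0.0221), positive since adenosine lowered it without the inhibitor. The call was lost in 12 of 19 alternatives. For Hspa8 the difference was 0.29 ± 0.23 (95% interval −0.21 to 0.79), for Hspd1 0.33 ± 0.25 (−0.21 to 0.88), for Hsp90ab1 0.20 ± 0.16 (−0.14 to 0.55) and for Cct2 0.12 ± 0.16 (−0.22 to 0.47). None of these 4 passed, nor did Hspa9 (0.39 ± 0.15, edgeR adjusted p = 0.176) or Bag3 (0.56 ± 0.21, edgeR adjusted p = 0.174). Without R replicate 3, 17 members had a higher effect with the inhibitor and 1 a lower one (Hspa2) of 74 tested, beside 19.8% of all genes (10.6% higher and 9.18% lower). They included 6 of the 8 CCT subunits, Hspd1 (0.67 ± 0.10), Hspe1 (0.61 ± 0.13), Hspa8 (0.53 ± 0.12), Hspa9 (0.51 ± 0.09) and Hsp90aa1 (0.71 ± 0.14), and Hsp90ab1 was not among them. R replicate 3 had 15.2% of its counts in ribosomal protein genes and 5.47% in mitochondrially encoded genes, the highest of all libraries, and the part of this in the result was not tested.

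Between the ligands, which were given at the same dose and time, 6 members had a more positive and 8 a more negative effect with ATPgs of 75 tested (18.7%), a share near the 17.3% of all 15788 genes (8.13% and 9.12%). The 6 were Hspa1a, Hspa1b, Dnajb4, Bag3, Hspa4 and Hspa9, and the 8 were Dnajb5, Bag2, Dnajc27, Hsf1, Hsph1, Hspbp1, Dnajb1 and Cct7. The Dnajc27 difference was −0.36 ± 0.12 and was lost in 12 of 19 alternatives. Each ligand was tested in its own set of cells, so the ligand and the set cannot be told apart. Without WTATPgs replicate 3, 9 members were more positive and 31 more negative, beside 33% of all genes (14.2% and 18.8%), and the more negative ones then included both HSP90 genes, Hspa8 (−0.20 ± 0.02), Hspd1 and Hspe1. The ATPgs comparison itself then had 14 members higher and 37 lower, beside 53.8% of all genes (26.9% each way), with Hspa1a at 2.63 ± 0.10, Hspa8 at −0.68 ± 0.01 and all 8 CCT subunits lower.

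The members too low to test had few counts in all 18 libraries together. Hspa1l, an HSP70 of male germ cells that neighbours Hspa1a, had 99 counts, Hspa12b had 93 and Hspb7, a small heat shock protein of muscle, had 91. Dnajb7 had 67, Dnajc22 had 41, Hspa12a had 36, Hspb8 had 21, and Dnajb8, Hsf5 and Dnajc5b had 7, 7 and 1. Limits from a count of 0 cover counting error only.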

How the data were processed

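RNA of 18 libraries was analysed, in 6 groups of 3. The values are raw counts per Ensembl gene as deposited by the authors in 3 tables. Reads had been aligned with HISAT2 2.1.0 to GRCm38, per the submitters' processing notes, and for the counting tool, annotation release and strand setting the sources used here give nothing. Symbols came from GENCODE M21 and RefSeq, and 99.7% to 99.8% of gene IDs matched. The members, the gene lists and the tests were chosen with earlier results of these data known.

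Each pair of groups was fitted on its own table with edgeR 4.0.16 (robust quasi-likelihood F test, TMM factors, filterByExpr by group, R 4.3.3), and p-values were adjusted over all genes with the Benjamini-Hochberg method at a threshold of 0.05. Differences between effects were contrasts in fits of 12 libraries. The scripts were tested on simulated data. Alternatives were DESeq2 1.42.0, limma 3.58.1, other scalings and filters, the replicate number as a block, and each library left out. Named members were the 6 largest rises and falls per comparison with groups that did not overlap and at least 5 CPM, a panel of known chaperones, the 2 smallest p in each family, and the 5 smallest p in each test of a difference. In other lists the 4 smallest p were eligible. No pair of replicate libraries agreed within sampling noise, and none were merged. The values of 1 listed gene are not reported here. Depths of 20156082 to 24331577 counts were similar, so the spread between libraries set the precision: the common biological coefficient of variation was 10.6% for WTATPgs and WT, 2.74% for ADO and DNT and 19.6% for RA and R.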

Additional observations from a re-analysis of the deposited data

Results flagged for a closer look

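Dnajc27, which encodes a Rab-like GTPase with a J domain, was singled out because the adenosine effect with the A2aR inhibitor differed from that without it, by 0.732 on the log2 scale (edgeR adjusted p = 0.0221). The gene had 7.59, 7.21 and 6.46 CPM in RA and 7.08, 7.22 and 5.32 CPM in R, whereas it had 14.4, 14.6 and 15.4 CPM in ADO and 24, 22.2 and 22.7 CPM in DNT. The levels in the inhibitor set were lower in both groups, and tables were scaled separately. Without R replicate 3 the difference was 0.67, and over the 19 alternatives the call was lost in 12.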

How the results depend on the processing

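The counts of members with ATPgs (45) and with adenosine (43) kept their size within 1.5 times under every alternative, at 35 to 51 and 39 to 45 when 1 library was left out. With the inhibitor, where 0 members passed, DESeq2 called 2 (2 higher), a fit without a filter on low counts called 2 (2 higher), and leaving out 1 library gave 0 to 6 calls, 0 to 5 higher and 0 to 1 lower. For ATPgs against adenosine effects, leaving out 1 library gave 10 to 40 calls, with 5 to 31 lower. For the adenosine effect with against without the inhibitor (1 call, higher), DESeq2 called 3 (3 higher), library size scaling called 0 (0 higher), limma-voom with a weight per group called 0 (0 higher), and no filter gave 0 higher and 1 lower. Leaving out 1 library there gave 0 to 18 calls, 0 to 17 higher and 0 to 2 lower. In that test Dnaja1, at −0.02 with all libraries, ran from −0.15 to 0.41 when 1 library was left out, and passed in the other direction without R replicate 3 (0.411, edgeR adjusted p = 0.0269). The cause of these changes was not tested. Replicate numbers were checked for pairing: deviations of same-numbered libraries from their group means correlated at −0.205 to 0.0517. Those of differently numbered libraries correlated at −0.0515 to 0.179. The check thus showed no pairing by number, but with 3 libraries per group it cannot exclude it. With the number as a replicate block, 40, 44 and 0 members passed in the ligand comparisons, 10 in the comparison of the ligands (5 lower), and 0 (0 higher) in the test of the inhibitor. Library size scaling moved the median log2 fold change of all genes by 0.128 with the inhibitor, 0.0953 in the test of the inhibitor, and 0.0504 and 0.0459 with ATPgs and adenosine. Relative to that median, the members' median with the inhibitor was 0.0234 with library size scaling and 0.0179 with TMM. The spread of the R libraries limits every statement on the inhibitor, and depth was similar in all groups.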
